A study of Mus musculus with 2 samples.

Results

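The 40 genes described here code for the machinery that folds secreted proteins in the endoplasmic reticulum (ER), moves them out, and senses and answers ER stress: 6 luminal chaperones, 3 cochaperones of the Hsp70 type, 2 lectin chaperones, 6 disulfide enzymes, 9 translocon genes, 4 subunits of the oligosaccharyltransferase, 3 genes of the COPII coat, 3 stress sensors and 4 stress transcription factors. They were chosen by name for these functions and not by a rule on their values, although earlier results of these data were known. All 40 were found among the 43346 Ensembl genes of the deposited tables, and all 40 had at least 1 TPM (an abundance relative to all transcripts and corrected for their length) in each library. RNA selected for polyA tails was sequenced from the liver of 1 female C57BL/6J mouse aged 10 weeks, an inbred laboratory strain. The same animal gave 2 libraries, labelled as technical replicates 1 and 2 of biological replicate 1 and called library 1 and library 2 here, and the labels date library 2 to May 2015. The series holds no treatment, genotype contrast or second animal, so the data give the level of each gene in this liver and the difference between its libraries. Each mean and SD below is over these 2 technical libraries (n = 2) and measures technical spread only.

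Proteins bound for secretion enter the ER through the Sec61 channel while they are being made, receive N-linked sugars from the oligosaccharyltransferase, and fold with the help of chaperones and disulfide isomerases before COPII vesicles carry them towards the Golgi. When unfolded protein builds up, Ire1, Perk and Atf6 in the ER membrane signal through Xbp1, Atf4 and the freed Atf6 fragment to raise chaperone genes, a programme known as the unfolded protein response. Hepatocytes secrete most plasma proteins and carry a large rough ER.

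Library 1 held 23309905 expected counts (estimated read or fragment counts per gene) and library 2 held 19525500. Mitochondrial transcripts took 40.7% and 14.9% of TPM, and nuclear protein-coding genes 37.6% and 73.7%, so the same TPM stands for a smaller part of the nuclear coding RNA in library 2 than in library 1. The 6 hepatocyte markers, Alb among them, summed to 28030 and 65949 TPM. Of other secretory cells that could add ER genes, the pancreatic acinar markers Prss1, Prss2 and Cpa1 were at 0 counts in both libraries, and the 6 listed markers summed to 0.96 and 8.65 TPM. The 6 plasma cell markers summed to 19.5 and 115 TPM, nearly all of it Sdc1 (17.4 and 111), which liver cells also express, while Jchain had 1.77 and 1.51 TPM and Tnfrsf17 was at 0 in both. Markers of Kupffer cells (64.2 and 152 TPM), sinusoidal endothelium (26.3 and 91.8), stellate cells (159 and 145), bile duct (47.8 and 63.2) and red blood cells (138 and 2063) were low beside the hepatocyte markers. What the other cells added to the values below was not tested, and in whole tissue fewer cells of a type cannot be told apart from less RNA per cell.

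The ER genes were among the better expressed genes of this liver. Their TPM summed to 3403 in library 1 and 4555 in library 2, which is 0.340% and 0.455% of all TPM (0.398 ± 0.081%, SD, n = 2). Set against nuclear protein-coding TPM alone the order turned, with 0.906% in library 1 and 0.618% in library 2, and by expected counts the shares were 0.797% and 0.791%. The median of the 40 genes was 33.2 TPM in library 1 and 61.5 in library 2, against 6.63 and 9.93 over the 8600 and 10679 nuclear protein-coding genes detected there. The 5 highest by mean, Hsp90b1, Hspa5, P4hb, Calr and Pdia3, made up 55.3% of the summed level in library 1 and 48.9% in library 2. Between libraries, log2 TPM of the 40 genes had a Pearson correlation of 0.814 and a rank correlation (Spearman) of 0.765, a description across genes that are not independent replicates.

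**Figure D1:**
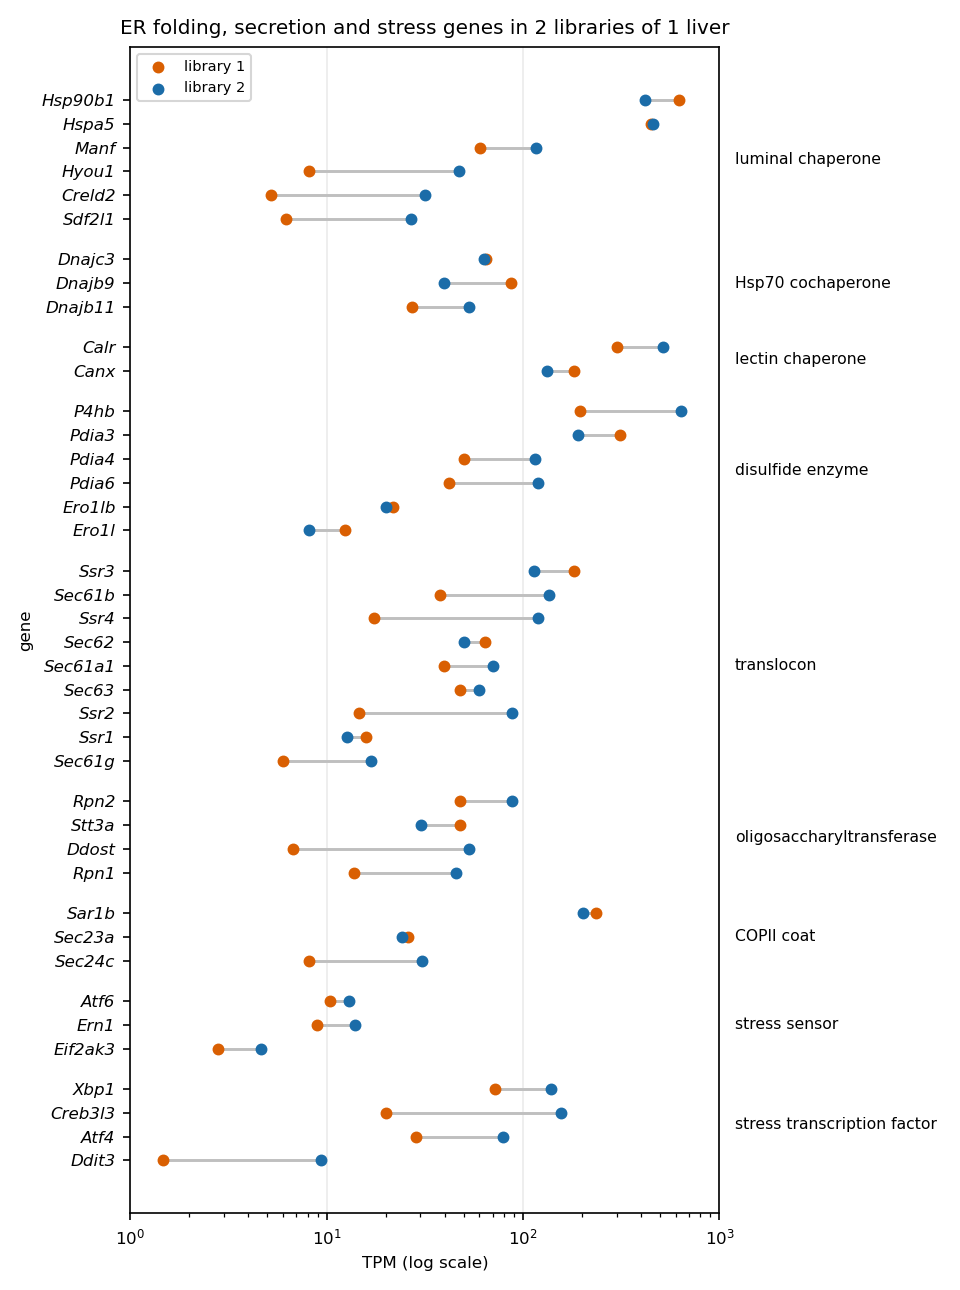
TPM of the 40 genes (x axis, log scale) by gene and role (y axis), with library 1 in orange and library 2 in blue, 1 value per library. TPM was higher in library 2 for 27 genes and lower for 13, and the distance between the points runs from almost none in Hspa5 to the widest in Ddost and Creb3l3.

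Hsp90b1 and Hspa5 were the most abundant luminal chaperone transcripts. Hsp90b1 codes for Grp94, the Hsp90 of the ER (ENSMUSG00000020048.9, GRCm38, chromosome 10, 86690209 to 86705509, minus strand), and had 625 TPM in library 1 and 420.1 in library 2. Hspa5 codes for BiP, the Hsp70 of the ER (ENSMUSG00000026864.9, chromosome 2, 34771970 to 34777547, plus strand), and had 451 and 458 TPM, the pair of values closest in ratio among the 40 genes. Among nuclear protein-coding genes they ranked 93rd and 114th in library 1 and 246th and 226th in library 2. Manf, a small stress-inducible ER protein, had 60.3 and 116 TPM. Hyou1, the nucleotide exchange factor of BiP known as Grp170, had 8.12 and 47.2 TPM, Creld2, an ER-resident protein induced by ER stress, 5.24 and 31.8, and Sdf2l1, a partner of the BiP cochaperones, 6.21 and 27.0. Hspa5 thus stood 55.5 times above Hyou1 in library 1 and 9.70 times in library 2, so the proportions of BiP and its helpers differed between libraries of 1 animal.

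The cochaperones that recruit BiP through a J domain were intermediate in level. Dnajc3, the p58IPK protein, had 64.6 and 63.1 TPM, Dnajb9, or ERdj4, 87.1 and 39.8, and Dnajb11, or ERdj3, 27.2 and 53.4. Dnajb9 exceeded Dnajb11 by 3.20 times in library 1 and was 0.745 times its level in library 2. Of the lectin chaperones, which hold glycoproteins by their trimmed sugars, the soluble calreticulin gene Calr had 299 and 519 TPM and the membrane-bound calnexin gene Canx 182 and 132. By gene TPM Canx lay below Calr in both libraries, at 0.608 and 0.255 times its level. For the main coding transcripts this held in library 2 only. In library 1 Calr-201 had 119 TPM and Canx-201 140, and the retained-intron transcript Calr-204 added 178 to Calr. In library 2 Calr-201 had 342 TPM and Canx-201 100.

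Disulfide enzymes were led by P4hb and Pdia3. P4hb, the protein disulfide isomerase gene that is also the beta subunit of prolyl 4-hydroxylase (ENSMUSG00000025130.7, chromosome 11, 120560298 to 120573253, minus strand), had 195 TPM in library 1 and 639 in library 2, where it was the highest of the 40 genes. Pdia3, or ERp57, the isomerase that works with calnexin and calreticulin (ENSMUSG00000027248.9, chromosome 2, 121413775 to 121438687, plus strand), had 313 and 190.4 TPM. Their order therefore changed, with Pdia3 at 1.61 times P4hb in library 1 and 0.298 times in library 2. Pdia4 (49.8 and 116 TPM) and Pdia6 (42.1 and 119), other isomerases of the family, were close to each other in each library. The oxidases that regenerate the isomerases were the lowest of the group, with Ero1lb at 21.8 and 20.1 TPM and Ero1l at 12.3 and 8.14. Ero1lb was above Ero1l in both libraries, by 1.76 and 2.47 times.

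The translocon genes showed subunits of 1 complex apart by different amounts in each library. The channel subunit Sec61a1 had 39.7 and 70.6 TPM, Sec61b 37.8 and 135, and Sec61g 5.98 and 16.8. The Sec61 partners Sec62 (64.1 and 49.96 TPM) and Sec63 (47.6 and 59.96) serve post-translational entry. By gene TPM Sec62 was 1.61 and 0.707 times Sec61a1. For the main coding transcripts, Sec61a1-201 had 12.5 and 68.1 TPM, Sec62-201 60.1 and 46.8, and Sec63-201 45.7 and 30.5. The noncoding Sec61a1-205 added 23.2 TPM in library 1, and the noncoding Sec63-203 28.9 in library 2. The 4 subunits of the translocon-associated protein complex (TRAP) sit together in the ER membrane, and their transcripts had 180.8 and 114 TPM for Ssr3, 17.5 and 119 for Ssr4, 14.6 and 88.0 for Ssr2, and 15.9 and 12.8 for Ssr1. Ssr3 exceeded Ssr4 by 10.3 times in library 1 and was 0.956 times its level in library 2. Ssr1 and Ssr2 were nearly level in library 1 (ratio 1.09), but in library 2 Ssr1 was 0.145 times Ssr2. In the oligosaccharyltransferase, the catalytic subunit gene Stt3a had 48.0 and 30.1 TPM, and the accessory subunits Rpn2 47.6 and 87.4, Rpn1 13.8 and 45.5, and Ddost 6.77 and 53.3. Stt3a was 7.09 times Ddost in library 1 and 0.565 times in library 2.

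These subunits differ in base composition, and so the sequences of the 4 TRAP subunits are shown. Each is the central 120 bases of the coding sequence of the gene's highest coding transcript in GENCODE M21, 5′ to 3′, with every G and C in capitals.
Ssr1: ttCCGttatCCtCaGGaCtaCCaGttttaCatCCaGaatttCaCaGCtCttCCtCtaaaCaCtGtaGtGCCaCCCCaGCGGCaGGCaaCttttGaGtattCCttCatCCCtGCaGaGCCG
Ssr3: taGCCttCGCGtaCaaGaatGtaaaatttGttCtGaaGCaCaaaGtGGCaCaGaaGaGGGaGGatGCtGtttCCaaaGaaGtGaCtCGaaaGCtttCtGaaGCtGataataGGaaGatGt
Ssr2: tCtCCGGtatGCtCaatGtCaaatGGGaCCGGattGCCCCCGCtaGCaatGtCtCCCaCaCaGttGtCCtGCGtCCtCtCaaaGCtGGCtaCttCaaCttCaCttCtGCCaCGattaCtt
Ssr4: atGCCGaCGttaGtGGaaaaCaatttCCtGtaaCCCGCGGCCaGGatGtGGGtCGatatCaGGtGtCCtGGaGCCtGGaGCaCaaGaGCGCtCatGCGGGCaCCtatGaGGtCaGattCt
The printed stretches hold 49.2% G and C in Ssr1, 41.7% in Ssr3, 51.7% in Ssr2 and 55% in Ssr4, so Ssr3 and Ssr4 differ clearly there and Ssr1 and Ssr2 little. Over the whole coding sequence the GC content was 47.2% for Ssr1, 46.3% for Ssr3, 54.3% for Ssr2 and 52.2% for Ssr4. Over the longest coding transcript, untranslated ends included, it was 44.6%, 40.8%, 55.7% and 55.1% in the same order, and 40.5% for Stt3a and 55.7% for Ddost. By that measure Ssr1, Ssr3 and Stt3a, the GC-poorer ones, had lower TPM in library 2, and Ssr2, Ssr4 and Ddost, the GC-richer ones, had higher TPM there. Other GC-poorer translocon genes were mixed. Sec62 (42.4% GC) had lower TPM in library 2, but Sec63 (43.5%) and Sec61g (44.6%) had higher TPM there.

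Of the COPII genes, Sar1b was by far the highest. It codes for the GTPase that starts the coat and whose human counterpart is mutated in chylomicron retention disease (ENSMUSG00000020386.5, chromosome 11, 51763687 to 51791925, plus strand), and had 234 TPM in library 1 and 203 in library 2. The inner coat subunit Sec23a had 25.9 and 24.2 TPM and the cargo-binding subunit Sec24c 8.10 and 30.5. Sar1b was 28.9 times Sec24c in library 1 and 6.64 times in library 2.

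The 3 sensors of ER stress were low beside most of the 40 genes, although Atf6 and Ern1 were above the median of detected nuclear protein-coding genes in both libraries. Atf6 had 10.4 and 12.9 TPM, Ern1, which codes for Ire1, 8.95 and 13.96, and Eif2ak3, which codes for Perk, 2.79 and 4.65. The transcription factors were higher, apart from Ddit3. Xbp1 had 71.9 and 139 TPM, 6.92 and 10.8 times Atf6. Creb3l3, the liver-enriched membrane-bound factor CrebH (ENSMUSG00000035041.8, chromosome 10, 81084324 to 81098874, minus strand), had 20.1 TPM in library 1 and 156 in library 2, and went from 0.280 times to 1.12 times Xbp1. Atf4, the factor translated when eIF2alpha is phosphorylated, had 28.6 and 79.0 TPM. Ddit3, the stress-induced factor Chop, was the lowest of the 40 genes in library 1, at 1.47 TPM from 23 counts, and had 9.38 TPM from 103 counts in library 2. Of these, the retained-intron transcript Ddit3-202 had 0.94 and 1.10 TPM, from 16.8 and 13.3 counts. The coding Ddit3-201 had 0.17 and 8.28 TPM, from 2.82 and 89.7 counts.

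Rounded expected counts were then scaled with TMM, which sets aside genes that differ most, and compared gene by gene. A log2 fold here means library 2 over library 1, and a call needed both a fold of 1 or more in size on that scale and an adjusted p below 0.05 (exact binomial test of the reads, Benjamini-Hochberg over 12728 genes). This compares the reads of these 2 libraries and has no replicate check, and its 95% intervals cover counting error only. Of the 40 genes, 23 were called, 10 higher and 13 lower in library 2, and 17 were not. Over all genes tested 56.5% were called, 32.7% higher and 23.8% lower, against 57.5%, 25% and 32.5% of the 40, so the share called was near that of genes at large. The median log2 fold was 0.11, against 0.042 over all genes. The direction depends on scaling: by total count 17 were higher and 1 lower (all genes, 41.9% and 7.49%), with a median of 0.69 against 0.62 over all genes, and the 1 lower was Dnajb9.

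The 10 higher genes were Ddost, Creb3l3, Ssr4, Ddit3, Creld2, Ssr2, Hyou1, Sdf2l1, Sec61a1 and Sec24c. Ddost was 4.24-fold higher in library 2 (log2 fold 2.09, interval 1.91 to 2.27), from 299 and 1589 counts. Creb3l3 was 3.95-fold higher (1.98, 1.88 to 2.08), Ssr4 3.71-fold (1.89, 1.69 to 2.10), Ddit3 3.53-fold (1.82, 1.18 to 2.56) and Creld2 3.26-fold (1.71, 1.44 to 1.99). The widest interval of these belongs to Ddit3, whose exons also overlap Mars on the opposite strand, a gene with 194 and 908 counts. The fold of Ddit3 joins its coding and retained-intron transcripts, which differed in opposite directions by count. The 13 lower genes were Dnajb9, Pdia3, Ssr3, Ero1l, Hsp90b1, Sec63, Canx, Sec62, Stt3a, Ssr1, Sar1b, Hspa5 and Sec23a. Dnajb9 was 4.06-fold lower in library 2 (log2 fold −2.02, interval −2.12 to −1.92), from 3339 and 1029 counts. Pdia3 was 2.96-fold lower (−1.57, −1.61 to −1.53), Ssr3 2.93-fold (−1.55, −1.60 to −1.50), Ero1l 2.80-fold (−1.49, −1.64 to −1.34) and Hsp90b1 2.74-fold (−1.46, −1.48 to −1.43). Hspa5, at nearly the same TPM in both libraries, had 24683 and 14691 counts and a log2 fold of −1.07, and so was called lower on scaled counts.

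By role, the calls higher, lower and not called were 3, 2 and 1 for luminal chaperones, 0, 1 and 2 for cochaperones, 0, 1 and 1 for lectin chaperones, 0, 2 and 4 for disulfide enzymes, and 3, 4 and 2 for the translocon. They were 1, 1 and 2 for the oligosaccharyltransferase, 1, 2 and 0 for COPII, 0, 0 and 3 for the sensors and 2, 0 and 2 for the transcription factors. These small counts stand beside 32.7% higher and 23.8% lower over all genes. Genes not called included Xbp1 (log2 fold 0.11), Calr (0.24), P4hb (0.83), Atf4 (0.58), Ern1 (−0.19) and Atf6 (−0.57). With adjusted p alone and no minimum fold, 37 of the 40 passed, beside 83.8% of all 12728 genes tested. The exceptions were Dnajb11 (adjusted p = 0.0689), Eif2ak3 (0.149) and Manf (0.202). Ero1lb, at a log2 fold of −0.999, lay just short of the limit.

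Over the 40 genes the log2 fold was higher at higher GC content, with rho (Spearman) at 0.899 and r (Pearson) at 0.915, a description across genes that share both libraries. Over all 12656 tested genes with a GC value rho was 0.888, so the 40 genes were near genes at large in this too. The 10 higher genes had 52.1 to 56.7% GC, the 13 lower genes 40.5 to 46.9%, and the 17 not called 43.2 to 54.1%, so the higher and lower genes did not overlap in GC. Of the 14 genes with 40 to 45% GC, 11 were lower and 0 higher, and their median log2 fold was −1.23. Over the 2522 tested genes of that class 69.3% were lower, 0.674% higher, and the median was −1.19. Of the 6 genes with 55 to 60% GC, all 6 were higher, with a median of 1.86, against 90.03% higher and a median of 2.63 over 2328 genes. In between, 2 of 5 genes at 45 to 50% were lower and 4 of 15 at 50 to 55% were higher, with 0 called the other way. Over all genes 14.9% were lower at 45 to 50% and 44.5% higher at 50 to 55%. Calls the other way were few over all genes too, with 4.14% higher at 45 to 50% and 1.76% lower at 50 to 55%. With the GC of the coding sequence alone rho was 0.855, and with that of the third codon position 0.776.

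**Figure D2:**
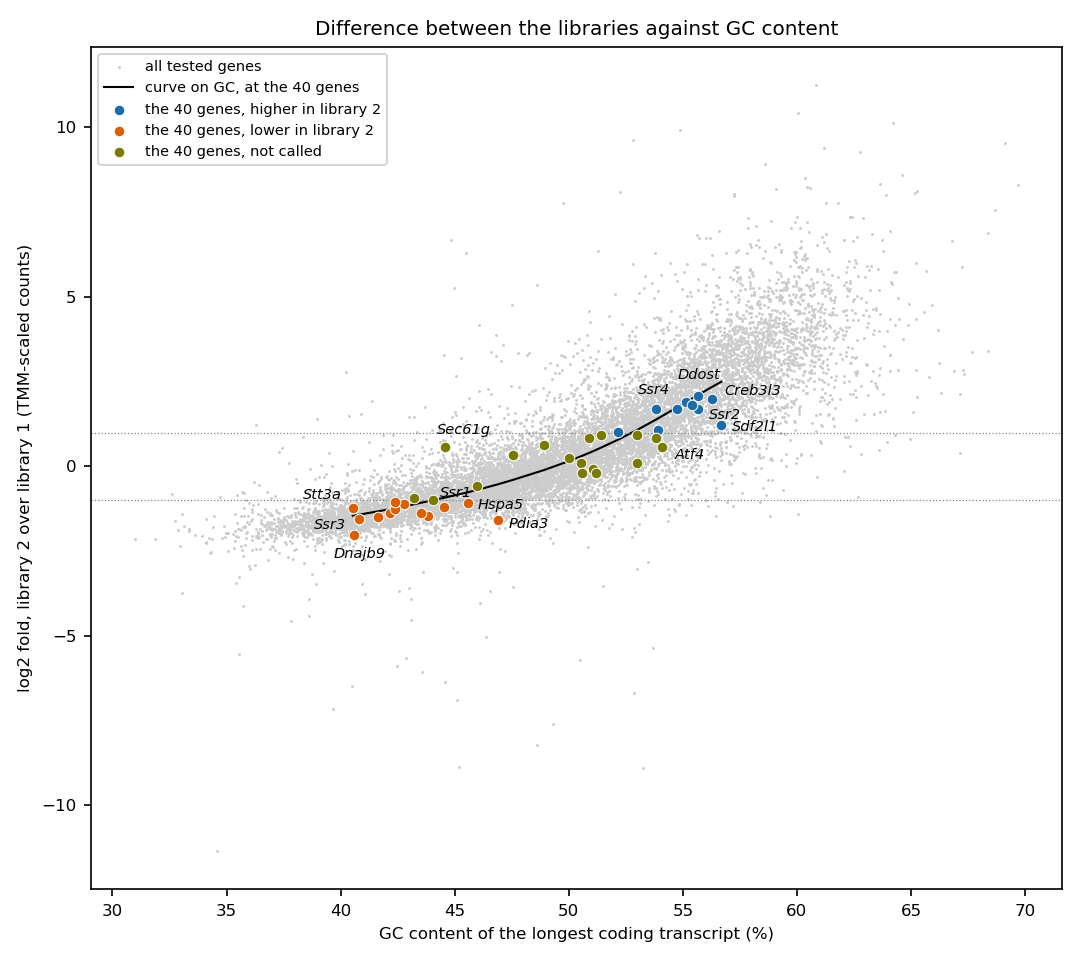
Log2 fold of library 2 over library 1 (y axis, TMM-scaled counts) against GC content of the longest coding transcript in percent (x axis), for all tested genes (grey) and the 40 ER genes (coloured by call), with the fitted curve in black and dotted lines at a log2 fold of 1 in size. The 40 genes lie within the band of all genes from Stt3a at 40.5% to Sdf2l1 at 56.7% GC.

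A smooth curve of fold on GC was fitted over nuclear genes and subtracted. Afterwards 1 of the 40 genes was called higher and 2 lower, where 9.05% and 7.83% of all 12656 genes with a GC value were, and the median was −0.13 against −0.018 over all genes. Sec61g was the higher one, at a log2 fold of 1.50 after the curve and 0.58 before it. With GC weighted by the TPM of each transcript, a setting added after the data were seen, its GC content went from 44.6% to 49.0%, its log2 fold after the curve was 0.66, and the call was lost. Sdf2l1 (−1.28, from 1.22) and Pdia3 (−1.04, from −1.57) were the lower ones, so Sdf2l1 changed sides. Sec61g rests on 72.8 and 137 counts and is the only gene of the 40 with fractional gene counts, which arise when reads are shared with another gene, and its deposited posterior SD was 10.4% and 7.11% of its count. Xbp1 (−0.97) and Atf4 (−0.91) came closest to the limit without a call. After the curve the 4 TRAP subunits had −0.28 for Ssr1, −0.41 for Ssr2, −0.13 for Ssr3 and −0.0054 for Ssr4. With the TPM-weighted GC these were −0.25, 0.25, −0.093 and 0.17, so Ssr2 and Ssr4 changed sign. The longest coding transcript of Ssr2, Ssr2-201, had 0% and 1.67% of its TPM. Signs of some other genes changed too, as in Manf (−0.53 and, weighted, 0.42). Of the 5 largest folds each way, Dnajb9 (−0.57), Hsp90b1 (−0.43) and Creb3l3 (−0.36) were farther from 0 than Ddost (−0.022) and Creld2 (−0.043).

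**Figure D3:**
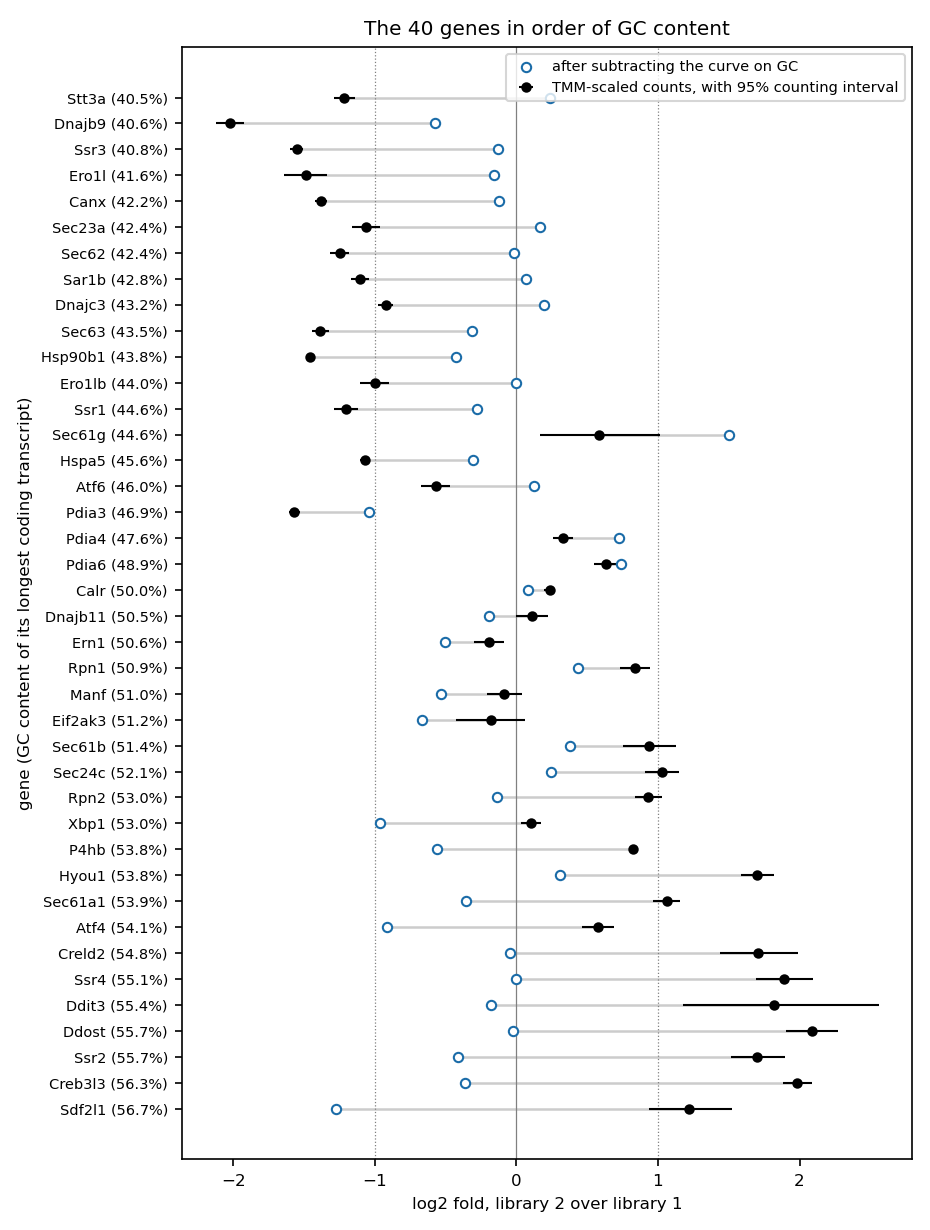
Log2 fold of library 2 over library 1 (x axis) for the 40 genes in order of GC content (y axis), from TMM-scaled counts with 95% counting intervals (black) and after subtracting the curve on GC (open circles). Black points move from left to right down the plot, from −1.21 in Stt3a to 1.22 in Sdf2l1, while most open circles lie between the dotted lines at 1 in size.

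Most of the genes kept the same leading transcript, judged by the deposited share of each transcript in the gene's TPM. The 40 genes have 157 annotated transcripts in the tables, and 12 genes have only 1. Among the 26 genes with at least 2 transcripts and a mean of at least 10 TPM, 22 (84.6%) had the same leading transcript in both libraries, against 2363 of 3463 nuclear protein-coding genes (68.2%) chosen the same way. The 4 exceptions were Calr, Sec61a1, Sec61g and Rpn2. Ddit3, below that mean level at 5.42 TPM, also changed, from Ddit3-202 (64.1%) in library 1 to Ddit3-201 (88.3%) in library 2. In Calr, the retained-intron transcript Calr-204 led library 1 with 59.5% and the coding Calr-201 led library 2 with 65.9%. In Sec61a1, the short processed transcript Sec61a1-205 had 58.3% and then 0.50%, and the coding Sec61a1-201 31.5% and then 96.5%. By expected counts the coding transcript led both genes in both libraries, with 5413 and 10533 counts for Calr-201 and 847 and 3115 for Sec61a1-201, and TPM, which divides by length, gives short transcripts more weight. In Rpn2, both leading transcripts were noncoding: Rpn2-203 had 54.8% and 0%, and Rpn2-206 20.7% and 70.0%. By expected counts the coding Rpn2-202 led library 1, with 660 counts against 479 for Rpn2-206 and 110 for Rpn2-203. Library 2 was led by Rpn2-206 by counts too, with 2006 against 1003 for Rpn2-202.

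Some genes kept their leading transcript but not its share. Sec63-201 went from 96.2% in library 1 to 50.9% in library 2, where the short noncoding Sec63-203 had 48.2% from 228 counts, beside 2752 counts for Sec63-201. Sec63 thus had a higher TPM in library 2 (59.96 against 47.6) although its scaled counts were lower (log2 fold −1.38). Hspa5-202 had 98.3% and then 79.6%, with 16% for Hspa5-204, a transcript annotated for nonsense-mediated decay, in library 2 and 0% in library 1. The retained-intron transcript Manf-205 had 6.91% and 35.3%. Exons of Manf also overlap those of Dcaf1 on the opposite strand and Rbm15b on the same strand, and whether counting used strand is not given in the sources used here. In all, 16 of the 40 genes share exonic bases with another annotated gene.

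**Figure D4:**
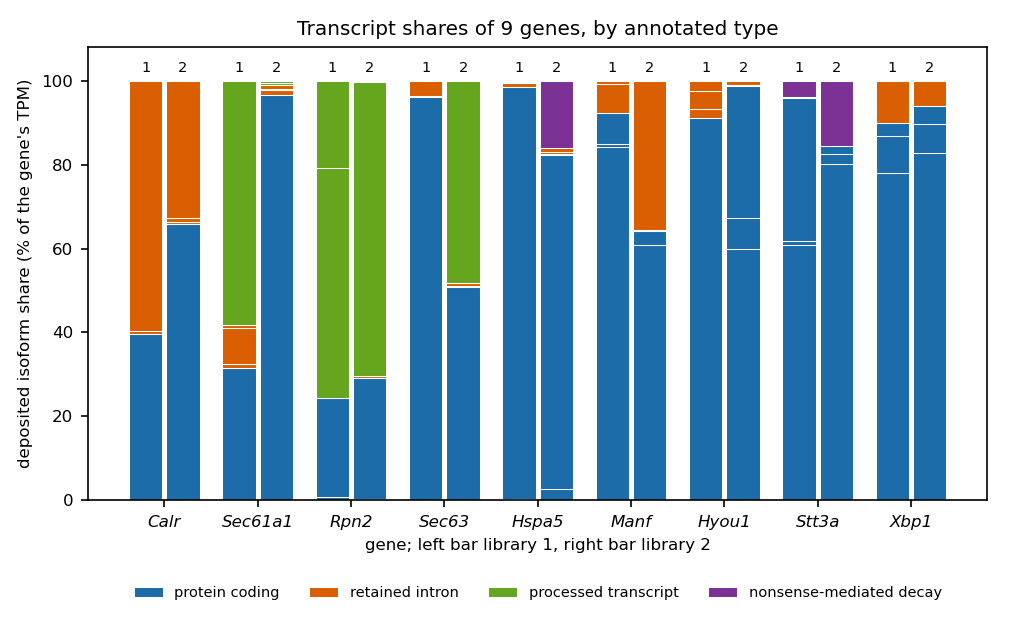
Deposited isoform shares in percent of the gene's TPM (y axis) for 9 genes (x axis), with library 1 as the left and library 2 as the right bar, coloured by annotated transcript type and divided by transcript. The coding part is 39.7% and 65.9% in Calr, 31.5% and 96.5% in Sec61a1, and 96.2% and 50.9% in Sec63.

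Xbp1 is a special case, because Ire1 removes a 26-base segment from its mRNA and so shifts the reading frame to that of the active factor. Cut sites of the form CNGCNG, cut after the third base, were searched in all 4 annotated transcripts. Xbp1-201 held 2 pairs of sites 26 bases apart, both within its coding sequence. The search does not tell these pairs apart, and the pair already known as the Ire1 target was taken. It is shown with 24 bases on either side and the removed segment in capitals.
Xbp1-201: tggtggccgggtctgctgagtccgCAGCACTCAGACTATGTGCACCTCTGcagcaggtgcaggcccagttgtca
This segment occurs in 3 of the 4 transcripts, and 0 of the 4 hold the joined flanks, so a spliced Xbp1 mRNA has no entry of its own among these transcripts and the values cannot separate it from the unspliced form. Xbp1-201 had 78.0% of the gene's TPM in library 1 and 82.8% in library 2. The retained-intron transcript Xbp1-202 had 10.0% and 5.95%.

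Some of the 40 genes share a promoter sequence. Genes raised by the unfolded protein response were among those chosen, so how often this sequence occurs in them is not independent of the choice. Atf6, together with the factor NF-Y, binds the ER stress response element, spelled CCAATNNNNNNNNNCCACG. RefSeq promoters (GRCm38.p6, 250 bases before to 50 after the start) were matched for 35 of the 40 genes; those of Hyou1, Manf, Sec61a1, Ssr2 and Atf6 were not. On either strand, the element occurred in 8 of the 35 (22.9%), against 37 of 27025 genes (0.137%) in the whole table, and in 2 of 85 matched promoters of 110 other ER genes. The 8 genes are all chaperones, cochaperones or disulfide enzymes, and their elements are printed with 5 bases on either side, along the gene's own strand and with the match in capitals.
Hspa5, chr2:34772020-34772048, plus strand: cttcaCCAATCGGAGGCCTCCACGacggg
Calr, chr8:84847070-84847098, minus strand: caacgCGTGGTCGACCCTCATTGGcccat
Hsp90b1, chr10:86705633-86705661, minus strand: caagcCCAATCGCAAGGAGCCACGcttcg
Hsp90b1, chr10:86705528-86705556, minus strand: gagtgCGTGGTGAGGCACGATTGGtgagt
Canx, chr11:50325795-50325823, minus strand: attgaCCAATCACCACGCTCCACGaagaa
Pdia6, chr12:17266486-17266514, plus strand: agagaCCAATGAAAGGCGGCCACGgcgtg
Ero1lb, chr13:12565677-12565705, plus strand: ggcctCGTGGTCCCGCCTCATTGGccgcc
Dnajc3, chr14:118937822-118937850, plus strand: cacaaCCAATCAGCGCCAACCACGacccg
Creld2, chr15:88819515-88819543, plus strand: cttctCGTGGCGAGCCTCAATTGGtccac
Counted from the RefSeq start, Hsp90b1 has 2 elements, at 212 to 194 and at 107 to 89 bases before it, and Hspa5 has its element at 65 to 47 bases before it. That start of Hspa5, base 34772090, lies inside the GENCODE gene given above, which begins at 34771970, so by GENCODE the element is within the gene. In Calr, Ero1lb, Creld2 and the second element of Hsp90b1 the match is on the other strand, so the letters begin with CGTGG. The ends of the element on their own were common, CCAAT in 74.3% of the 35 and 41.1% of all genes, and CCACG in 71.4% and 35.5%. The related element ERSE-II, ATTGG and CCACG with 1 base between them, was found for Dnajb11 alone of the 35 and in 12 of 27025 genes, and TGACGTGG for Sec23a alone and in 193. A match is a description of these letters and shows no binding. The 8 genes with the element had a median of 123 and 126 TPM, and the 27 without 27.2 and 53.3. The 8 ranged from Creld2 (5.24 TPM) to Hsp90b1 (625) in library 1, and from Ero1lb (20.1) to Calr (519) in library 2. Whether the element goes with level was not tested.

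Other genes of the same pathways were taken from 7 lists of 110 genes, of which 103 were tested. In library 2, 35 were higher (34.0%), 20 lower (19.4%) and 48 not called, beside 32.7% higher and 23.8% lower over all genes, the shares against which the counts of each list below are to be read. By total count 42 were higher and 6 lower, where 41.9% and 7.49% of all genes were. Calls by total count in single lists below are to be read against these shares instead. After the GC curve 9 were higher and 6 lower, where 9.05% and 7.83% of all genes were. ER-associated degradation, which returns misfolded proteins to the proteasome, had 6 higher and 3 lower of 20, and its highest genes were the stress-induced membrane gene Herpud1 (46.3 and 159 TPM) and the segregase gene Vcp (61.1 and 141). Signal recognition and signal peptidase genes had 2 higher and 5 lower of 15 (3 and 1 by total count), with Spcs1, a signal peptidase subunit (101 and 128 TPM), and Srpr, the receptor of the signal recognition particle (91.4 and 83.9), on top. Other glycosylation and calnexin cycle genes had 6 higher and 2 lower of 13 tested, led by Ostc, an oligosaccharyltransferase subunit (61.4 and 72.6 TPM), and Ganab, the glucosidase II alpha subunit (28.6 and 69.9). Other disulfide and prolyl isomerase genes had 7 higher and 5 lower of 16, led by the cyclophilin gene Ppib (62.8 and 268 TPM) and the sulfhydryl oxidase gene Qsox1 (17.6 and 259), while the pancreatic isomerase gene Pdia2 was at 0 counts in both libraries.

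Other COPII and cargo receptor genes had 3 higher and 2 lower of 19, led by Tmed2, a p24 cargo receptor (253 and 146 TPM), and Mcfd2, which works in factor V and VIII export (85.6 and 211). Of 4 other cochaperones 1 was higher and 1 lower, and the highest were the exchange factor gene Sil1 (5.83 and 33.0 TPM) and Dnajc25 (18.1 and 13.0). Other unfolded protein response genes had 10 higher and 2 lower of 16, with a median log2 fold of 1.66 that became −0.23 after the GC curve, and a median GC content of 54.7%. By total count they had 11 higher and 1 lower, beside 41.9% and 7.49% over all genes. Tmbim6, the Bax inhibitor gene (241 and 809 TPM), and Atf5, a factor of the integrated stress response (18.4 and 190 TPM), were the highest of them. Ern2, the Ire1 paralog of mucosal epithelium, was at 0 counts in both libraries.

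**Figure D5:**
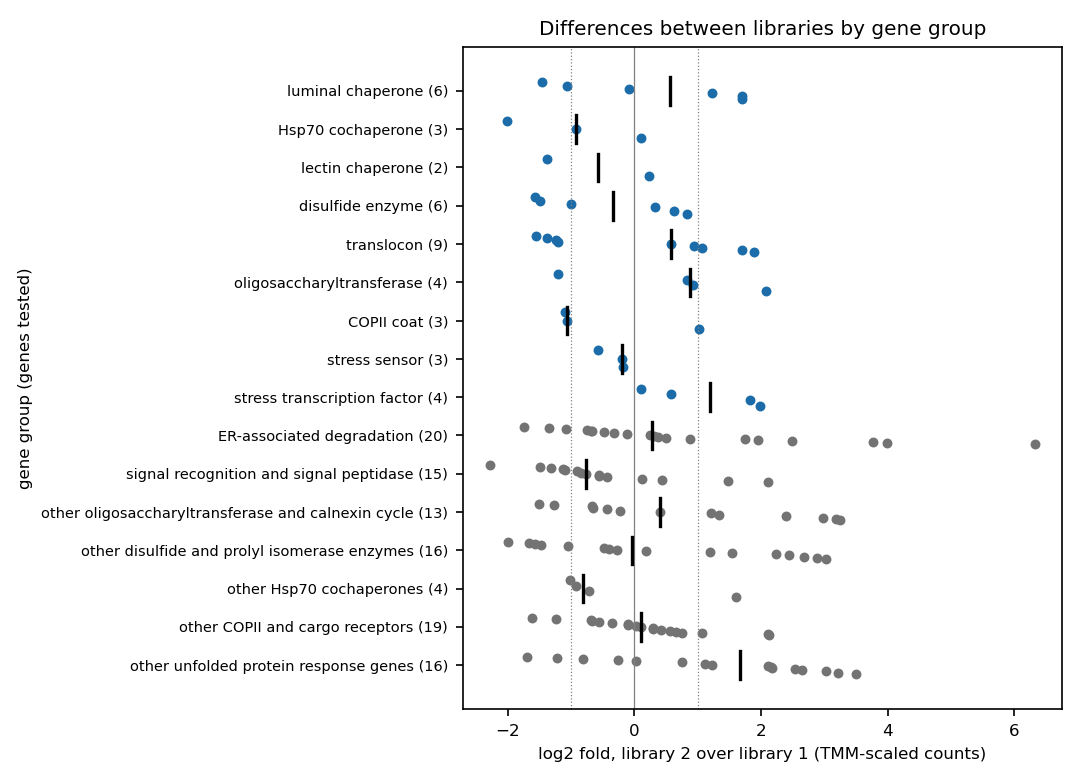
Log2 fold of library 2 over library 1 (x axis, TMM-scaled counts) for every tested gene by group (y axis, genes tested in brackets), with the 40 genes by role in blue, the other ER genes in grey and a black bar at each group's median. The values within most groups lie on both sides of 0, and the other unfolded protein response genes have the highest median, 1.66.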

How the data were processed

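Each library has a gene and a transcript table from the authors. The deposited expected counts are raw estimates of reads or fragments. The deposited TPM values are corrected for length and total. The deposited isoform share is a percent of gene TPM. The deposited posterior SD of the count is used for Sec61g only. Per the file headers and labels, alignments are to mm10 with annotation M4. Which quantifier, aligner and strand setting the authors used is not given in the sources used.

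The 40 genes and the other lists were chosen with earlier results of these data known. Symbols, coordinates and sequences are from GENCODE M21 (GRCm38) and promoters from RefSeq. Of 43346 Ensembl genes, 42462 had a symbol. Genes with a summed rounded count of at least 20 were scaled with TMM (edgeR 4.0.16, factors 0.818 and 1.22). With 1 library on each side the quasi-likelihood test has no residual degrees of freedom, so a two-sided exact binomial test was run per gene. The prior count for folds was 0.5. The curve on GC (span 0.3) used the longest coding transcript. On simulated data for this comparison, 190 of 194 tested genes with a log2 fold of 2 in size were called the right way and 3 unchanged genes were called, among 12734 tested. Both simulated libraries were random (Poisson) draws around 1 shared mean per gene, with no trend on GC and no spread beyond counting. The real libraries differ from that, so the simulation checks the procedure only and gives no rate of false calls for these data. Named are all 40 genes, the 5 largest folds each way, and the 2 highest and any genes at 0 counts in both libraries of each other list. Overlapping genes, Sec62, Sec63, Hspa5, Manf, Ssr2 and Ddit3 transcripts and Syvn1 and Derl3 lie outside that rule.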

Additional observations from a re-analysis of the deposited data

How the results depend on the processing

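Of the 40 genes, 23 were called between the libraries, beside 56.5% of all genes tested. The share over all genes follows each count in brackets. The count was 18 with total-count scaling (49.3%), 24 with DESeq2 size factors (56.8%) and 17 with the ratio of TPM (48.9%). It was 23 with no count filter (41.8%), 22 with a summed count of at least 200 (55.8%) and 24 without mitochondrial genes (56.6%). With any size of fold it was 37 (83.8%), and after the GC curve 3 (16.9%). After a curve on GC weighted by transcript TPM, which was chosen after seeing the data, it was 2 (14.8%). The median log2 fold, 0.11, was 0.69 with total-count scaling and 0.85 with the ratio of TPM, and turned to −0.13 after the GC curve and −0.0073 after the TPM-weighted curve. The cause was not tested. The share of TPM, 0.398%, was 0.762% of nuclear protein-coding TPM and 0.794% of expected counts, and 0.340% to 0.455% when 1 library was left out. All 40 genes had at least 10 counts in both libraries and 38 at least 5 TPM. The same leading transcript was found for 22 of 26 genes, 23 of 28 at a mean of at least 1 TPM, and 24 of 26 by expected count. No paired analysis was possible because 1 group with 2 technical libraries holds no groups to pair. With 1 animal, no value covers variation between mice, and Ddit3 (23 counts in library 1) and Sec61g are limited by depth.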

Other observations

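Of 85 other ER genes with a matched promoter, Syvn1 and Derl3 held the ER stress response element. Both act in ER-associated degradation, Syvn1 as the ubiquitin ligase Hrd1 and Derl3 as a derlin, and both were chosen after their promoters and values were seen. Syvn1 went from 1.05 TPM and 68 counts in library 1 to 28.6 TPM and 1364 counts in library 2, a log2 fold of 3.99 that was 1.23 after the GC curve. Derl3 had 0 counts in library 1 and 44 in library 2, or 2.48 TPM.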
